A study of Mus musculus with 9 samples.

Results

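The 10 genes described here encode carriers that move amino acids across the plasma membrane: Slc7a1, Slc7a2, Slc7a5, Slc7a8, Slc3a2, Slc1a5, Slc38a2, Slc38a4, Slc43a1 and Slc36a2. They were taken by symbol, as the authors' tables pair symbols with Ensembl identifiers, and all 10 were found among the 55487 genes of the count table. All 10 also passed the filter on low counts and were among the 14851 genes tested. RNA came from the gastrocnemius, a hindlimb calf muscle, of wild-type mice labelled male and C57BL/6 (C57BL/6J in the study's text), whose ages the labels do not give. The 4 Control libraries came from mice with no unloading. The 2 Unloading libraries were taken on day 10 of hindlimb unloading, in which the tail is held up so that the hind limbs bear no weight, and the 3 Reloading libraries on day 1 after the return to weight bearing. Polyadenylated RNA was sequenced, and the libraries held 9252443 to 19612101 counted read pairs. The labels do not tie libraries to separate mice, so p-values measure the spread between libraries.

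Female mice are named in the methods of the study, against the labels. The Y-linked gene Ddx3y had at least 1013 read pairs in each of the 9 libraries and Xist at most 5. Control 2 and Reloading 1 stood apart by skin transcripts, whose 12 markers summed to 320.6 and 144.4 CPM (counts per 1000000 read pairs, scaled by edgeR's TMM factors) against 5.17 to 8.23 CPM in the other 7 libraries. The counts of the 10 transporters in each comparison were therefore repeated without those libraries.

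Muscle fibres take up amino acids through carriers of several families that differ in what they carry and what drives them. Sodium-coupled carriers accumulate small neutral amino acids such as alanine and glutamine. Exchangers built from a light chain and a shared heavy chain trade intracellular glutamine for leucine and other large neutral amino acids, and leucine and arginine in turn activate the growth kinase mTORC1. Some of these genes, Slc38a2 and Slc7a5 among them, are known targets of ATF4, the transcription factor of the amino acid response.

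Promoter sequence was looked at for every member with an entry, whatever its change at reloading. The RefSeq promoters of build GRCm38.p6, each running from 250 bases before to 50 bases after an annotated start, held 9 promoters for 6 of the 10 genes. Entries for Slc7a2, Slc7a5, Slc1a5 and Slc36a2 were not among them. Both strands were searched for the letters TGATGNAA (the core of the C/EBP-ATF response element that ATF4 binds), CACGTG (the E-box) and TGANTCA (the AP-1 site), which share no match. Among 32851 promoters of the same length, 3.97% held the first, 7.15% the second and 7.81% the third. No TGATGNAA was found in the 9 promoters, which are too few to set against the share of 3.97%. Sequence outside these windows was not searched. One AP-1 match lay from base -123 to base -117 of the upstream Slc7a1 start, and one E-box from base -64 to base -59 of the Slc43a1 start, where the count annotation places an exon. The stretches before the Slc7a1 and Slc38a2 starts are shown because these are the members with a promoter entry that rose most, and the short Slc43a1 stretch because that gene fell most. Capitals mark a motif match, and a match is a description of letters only. The Slc7a1 stretch is chr5:148399905-148400154 and the Slc38a2 stretch chr15:96699731-96699978, both read on the minus strand and outside annotated exons. The Slc43a1 stretch is chr2:84840247-84840276 on the plus strand.
Slc7a1: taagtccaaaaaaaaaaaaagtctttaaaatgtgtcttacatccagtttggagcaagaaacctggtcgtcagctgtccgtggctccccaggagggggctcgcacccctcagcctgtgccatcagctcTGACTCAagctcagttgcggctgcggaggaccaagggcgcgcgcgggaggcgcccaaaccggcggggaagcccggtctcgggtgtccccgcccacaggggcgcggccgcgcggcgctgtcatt
Slc38a2: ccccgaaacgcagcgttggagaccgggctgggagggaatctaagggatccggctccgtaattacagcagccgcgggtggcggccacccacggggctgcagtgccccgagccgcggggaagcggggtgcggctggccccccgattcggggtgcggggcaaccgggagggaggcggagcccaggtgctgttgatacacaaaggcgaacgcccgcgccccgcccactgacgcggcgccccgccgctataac
Slc43a1: agggtctccctcCACGTGgcagccgtggga

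At reloading, 5 of the 10 transporters rose over Unloading and 2 fell. The risers were Slc38a2, Slc7a5, Slc7a1, Slc1a5 and Slc3a2, by log2 fold changes from 0.34 to 1.26, and Slc43a1 and Slc7a2 fell. Over all tested genes 18.5% rose and 19.0% fell in that comparison, 37.5% in all (edgeR's quasi-likelihood F-test, adjusted p under 0.05, Benjamini-Hochberg over all 14851 genes). The median log2 fold change was 0.48 over the 10 transporters and 0.03 over all genes. Reloading and Unloading libraries did not overlap for 8 of the 10 members and for 60.0% of all genes, and 3 members, Slc38a2, Slc7a5 and Slc7a1, rose at least 2-fold, as did 6.24% of all genes. Without Control 2 and Reloading 1 the counts were again 5 higher and 2 lower and 8 members did not overlap (67.4% of all genes), but only Slc38a2 was still at least 2-fold higher, with Slc7a5 at 0.77 and Slc7a1 at 0.98 on the log2 scale.

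Against Control, the same 5 genes were higher at reloading and 3 were lower, namely Slc43a1, Slc7a8 and Slc38a4. Of all tested genes, 22.1% were higher and 21.3% lower, 43.5% in all. The median was 0.51 over the transporters and 0.01 over all genes. The groups did not overlap for 8 members and 46.9% of all genes, and Slc38a2 and Slc7a5 were at least 2-fold higher, as were 5.57% of all genes. This comparison shares its Reloading libraries with the first, so the 2 counts are not independent. Unloading against Control moved few members: Slc43a1 rose and Slc38a4 fell, and 8 of 10 did not pass the test, where 4.40% of all genes rose and 5.50% fell, 9.90% in all. The medians there were 0.14 and -0.00. Unloading and Control did not overlap for 5 members and 33.0% of all genes, and no member rose 2-fold, which 0.357% of all genes did. Without Control 2 and Reloading 1 the counts of called and of non-overlapping members were the same in both comparisons with Control (58.2% of all genes not overlapping for Reloading and 38.8% for Unloading), and Slc38a2 alone was at least 2-fold higher in Reloading, with Slc7a5 at 0.84 on the log2 scale. The count at unloading was 1 when Control 1, Control 3, Unloading 2 or Reloading 2 was left out, and 0 by edgeR without Unloading 1, where 3 members had an unadjusted p under 0.05 and 121 of all genes were called.

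**Figure D1:**
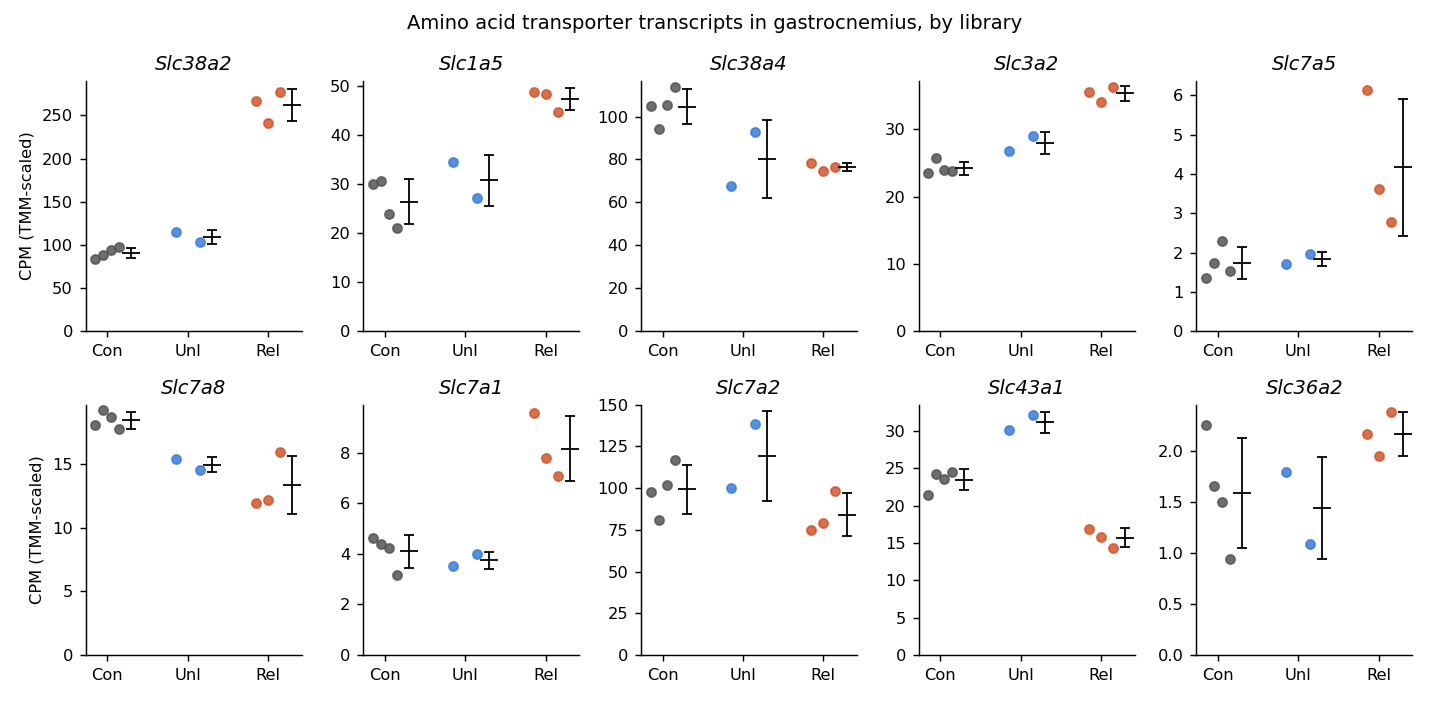
Level of each of the 10 transporters in CPM (TMM-scaled counts per 1000000, linear axes from 0) in every Control (Con, n = 4), Unloading (Unl, n = 2) and Reloading (Rel, n = 3) library, with the group mean and SD beside the points. The 3 Reloading points lie above all 6 others for Slc38a2, Slc1a5, Slc3a2, Slc7a5 and Slc7a1, and below all 6 others for Slc43a1.

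The scaling of libraries bears on these counts. With library totals alone in place of TMM, the median log2 fold change of all genes moved from 0.03 to 0.27 for Reloading against Unloading and from 0.01 to 0.25 for Reloading against Control. The share of called genes that were higher then went from 49.3% to 82.8% and from 50.9% to 80.2%. Fold changes here are relative to the TMM centre, and the members whose call turns on it are named with their values below. In whole muscle, fewer cells of a type and less RNA per cell cannot be told apart.

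Slc38a2, at chr15:96687392-96699730 on the minus strand of GRCm38, encodes the sodium-coupled carrier SNAT2, which brings in alanine, glutamine and other small neutral amino acids and is known to be induced when amino acids run short or cells shrink. Its level was 84.0, 88.5, 93.8 and 97.2 CPM in Control, 115 and 104 CPM in Unloading, and 267, 241 and 277 CPM in Reloading. The groups did not overlap in any comparison. Between Unloading and Reloading the mean went from 109.6 ± 8.19 CPM (SD, n = 2) to 262 ± 18.4 CPM (n = 3). The change was 1.26 ± 0.09 on the log2 scale (SE), at an edgeR adjusted p of 1.5e-07. Against Control the log2 fold change was 1.52 ± 0.07 (adjusted p = 1.05e-09). The Unloading libraries were higher than the Control libraries by 0.27 ± 0.08 on the log2 scale, with an adjusted p of 0.0557, and 7 of 19 alternative settings brought it under the threshold, the omission of Control 4 among them (0.30, adjusted p = 0.0457).

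Slc1a5, at chr7:16781340-16798274 on the plus strand, encodes ASCT2, a sodium-dependent exchanger for glutamine, serine and alanine. Its Control levels of 30.0, 30.8, 24.01 and 21.1 CPM overlapped the 34.5 and 27.1 CPM of Unloading. All 3 Reloading libraries, at 48.9, 48.5 and 44.8 CPM, were above both. Its rise was 0.63 ± 0.14 on the log2 scale against Unloading (edgeR adjusted p = 0.00258) and 0.84 ± 0.12 against Control (adjusted p = 4.06e-05). Without Unloading 2 the first was 0.45 with an adjusted p of 0.0605.

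Slc38a4, at chr15:96994820-97055956 on the minus strand, encodes SNAT4, a relative of SNAT2. It stood at 105, 94.0, 105 and 114 CPM in Control, 67.4 and 92.9 CPM in Unloading and 78.2, 74.6 and 76.7 CPM in Reloading. Every Control library was higher than every Unloading and Reloading library, and the Unloading libraries bracketed the Reloading ones. The log2 fold change was -0.38 ± 0.11 for Unloading against Control (edgeR adjusted p = 0.0389), -0.45 ± 0.10 for Reloading against Control (adjusted p = 0.00143) and -0.07 ± 0.11 for Reloading against Unloading (adjusted p = 0.647). The first call was lost when Control 1, Control 3, Control 4, Unloading 1 or Reloading 2 was left out, with a log2 fold change from -0.63 to -0.17 over all single libraries left out, of which -0.17 was the value without Unloading 1. With library totals alone the second was -0.21 (adjusted p = 0.0683) and the third turned to 0.18. Thus of the 3 sodium-coupled carriers, Slc38a2 and Slc1a5 were higher at reloading than in Control while Slc38a4 was lower.

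Slc3a2, at chr19:8706882-8723369 on the minus strand, encodes the CD98 heavy chain, which carries the light chains to the plasma membrane. It had 23.5, 25.7, 23.9 and 23.8 CPM in Control, 26.8 and 29.1 CPM in Unloading and 35.6, 34.1 and 36.4 CPM in Reloading. The groups did not overlap, with Unloading between Control and Reloading. Changes on the log2 scale were 0.34 ± 0.09 for Reloading against Unloading (edgeR adjusted p = 0.00648) and 0.54 ± 0.07 for Reloading against Control (adjusted p = 2.99e-05). For Unloading against Control it was 0.21 ± 0.08 (adjusted p = 0.129). Without Unloading 1 the value against Unloading was 0.28, with an adjusted p of 0.0766.

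Slc7a5, at chr8:121881150-121907694 on the minus strand, encodes LAT1, the light chain known for leucine uptake in growing cells. It was among the least abundant members, with 12 to 32 read pairs per Control library, 23 and 36 in Unloading and 42 to 76 in Reloading. These gave 1.35, 1.74, 2.29 and 1.54 CPM in Control, 1.72 and 1.97 CPM in Unloading, and 6.12, 3.62 and 2.78 CPM in Reloading. All Reloading libraries were above all others, and the highest was Reloading 1, the library with skin transcripts. On the log2 scale the rise was 1.15 ± 0.31 against Unloading (edgeR adjusted p = 0.00985) and 1.22 ± 0.27 against Control (adjusted p = 0.0019). Without Control 2 and Reloading 1 these were 0.77 (adjusted p = 0.049) and 0.84 (adjusted p = 0.0262). Without Unloading 1 the first had an adjusted p of 0.0684.

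Slc7a8, at chr14:54722209-54781946 on the minus strand, encodes LAT2, the second light chain of CD98 in the list. Its level was 18.0, 19.2, 18.6 and 17.8 CPM in Control, 15.3 and 14.5 CPM in Unloading and 11.9, 12.1 and 16.0 CPM in Reloading. Control was above both other groups in every library, and Unloading overlapped Reloading. The log2 fold change was -0.46 ± 0.11 for Reloading against Control (edgeR adjusted p = 0.00311), -0.31 ± 0.12 for Unloading against Control (adjusted p = 0.125) and -0.16 ± 0.13 for Reloading against Unloading (adjusted p = 0.362). With library totals alone, the first was -0.22 (adjusted p = 0.101) and the last turned to 0.09.

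Because the light chains share 1 heavy chain, their per-length ratio to Slc3a2 (CPM per kb of exon over CPM per kb of exon) was taken within each library. The ratio of Slc7a8 to Slc3a2 was 0.527 to 0.549 in Control, 0.404 and 0.353 in Unloading and 0.236, 0.251 and 0.31 in Reloading. The groups did not overlap, in the order Control, Unloading, Reloading. The difference of Reloading from Control was -1.02 on the log2 scale, with an exact two-sided permutation p of 0.0571, the smallest that 3 against 4 libraries can give. The ratio of Slc7a5 to Slc3a2 was 0.0549 to 0.0909 in Control, 0.0611 and 0.0644 in Unloading and 0.164, 0.101 and 0.0728 in Reloading. Reloading overlapped Control there, through Reloading 3, with a log2 difference of 0.67 (exact permutation p = 0.114), which was 0.36 without Reloading 1 and 0.94 without Reloading 3. None of the 6 such tests could reach 0.05, since the smallest exact p was 0.2 for Reloading against Unloading and 0.133 for Unloading against Control, and adjusted over the 6 the p-values ran from 0.24 to 0.8.

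Slc7a1 and Slc7a2 encode CAT1 and CAT2, carriers of the cationic amino acids arginine, lysine and ornithine, and they went in opposite directions between Unloading and Reloading. Slc7a1, at chr5:148327410-148399904 on the minus strand, stood at 4.62, 4.39, 4.22 and 3.17 CPM in Control, 3.52 and 3.99 CPM in Unloading and 9.59, 7.81 and 7.09 CPM in Reloading. Control and Unloading overlapped, and all Reloading libraries were higher than both. The rise was 1.11 ± 0.19 on the log2 scale against Unloading (edgeR adjusted p = 0.000308) and 0.99 ± 0.16 against Control (adjusted p = 0.000117).

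Slc7a2, at chr8:40862396-40922308 on the plus strand, was more abundant, at 97.4, 80.9, 102.03 and 117 CPM in Control, 100.4 and 138 CPM in Unloading and 74.8, 79.0 and 98.5 CPM in Reloading. Reloading lay below Unloading in every library, by a narrow gap between Reloading 3 and Unloading 1, and Control overlapped both. The log2 fold change was -0.51 ± 0.15 for Reloading against Unloading (edgeR adjusted p = 0.0161), 0.27 ± 0.14 for Unloading against Control (adjusted p = 0.254) and -0.24 ± 0.13 for Reloading against Control (adjusted p = 0.154). The first call was lost without Reloading 1 (adjusted p = 0.0596), Reloading 2 (0.0578) or Unloading 2 (0.295, log2 fold change -0.26), in the robust fit (0.0792) and with library totals alone (-0.26, 0.165). With the description number as a replicate block, the last was -0.31 with an adjusted p of 0.0208, and it also passed without Control 2 (-0.33, 0.0388) or Reloading 3 (-0.37, 0.0465) and with no low-count filter (-0.23, 0.0222). The value for Unloading against Control was 0.48 without Unloading 1 and 0.014 without Unloading 2.

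Slc43a1, at chr2:84838850-84863594 on the plus strand, encodes LAT3, a facilitated carrier of branched-chain amino acids and phenylalanine that uses no ion gradient. It had 21.4, 24.3, 23.5 and 24.5 CPM in Control, 30.2 and 32.2 CPM in Unloading and 16.9, 15.8 and 14.4 CPM in Reloading. It was the only member called in all 3 comparisons, with Unloading above Control and Reloading below it and no overlap. It changed on the log2 scale by 0.41 ± 0.09 for Unloading against Control (edgeR adjusted p = 0.014), -0.99 ± 0.10 for Reloading against Unloading (adjusted p = 4.56e-06) and -0.58 ± 0.09 for Reloading against Control (adjusted p = 0.000103). The calls at reloading were made in all 19 alternatives, and the rise at unloading in 16, with adjusted p-values of 0.102 and 0.0932 without Unloading 1 and Unloading 2 and 0.0515 with the title number as a block.

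Slc36a2, at chr11:55158470-55185077 on the minus strand, encodes PAT2, which brings in glycine, alanine and proline together with protons. It was measured by only 11 to 36 read pairs per library, at 2.26, 1.66, 1.5 and 0.944 CPM in Control, 1.80 and 1.09 CPM in Unloading and 2.18, 1.95 and 2.38 CPM in Reloading. Reloading was above Unloading in every library and overlapped Control. The log2 fold changes of 0.62 ± 0.32 against Unloading (edgeR adjusted p = 0.143) and 0.48 ± 0.27 against Control (adjusted p = 0.172) did not pass. With library totals alone both passed, at 0.87 (adjusted p = 0.0435) and 0.71 (adjusted p = 0.0431), and with the description number as a replicate block the second was 0.68 (adjusted p = 0.0472). Against Unloading the value was 0.98 without Unloading 1 and 0.27 without Unloading 2, and against Control 0.66 without Control 1 and 0.30 without Control 4.

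**Figure D2:**
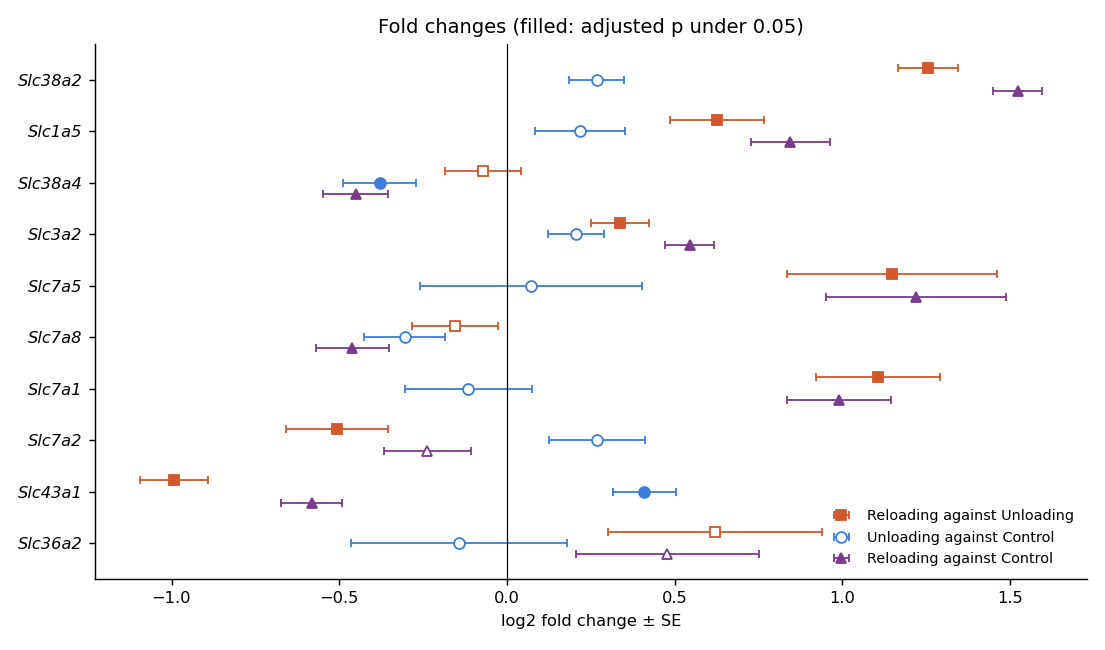
Log2 fold change with its SE (x axis) of each transporter in Reloading against Unloading (squares), Unloading against Control (circles) and Reloading against Control (triangles), from the edgeR fit, filled where the adjusted p was under 0.05. Slc38a2 lies farthest right in both Reloading comparisons, at 1.26 and 1.52, and Slc43a1 farthest left, at -0.99 and -0.58.

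The rank order of the transporters by level per length changed at reloading. In Control, Slc38a4 led with 24.5 ± 1.92 CPM per kb of exon (SD, n = 4), followed by Slc7a2 with 10.9 ± 1.61 and Slc38a2 with 10.3 ± 0.66, which did not differ beyond their spread. Slc3a2 with 6.86 and Slc1a5 with 6.34 overlapped each other, as did Slc43a1 with 4.10 and Slc7a8 with 3.68. The lowest levels, 0.488, 0.467 and 0.356 CPM per kb for Slc36a2, Slc7a5 and Slc7a1, overlapped between neighbours. Unloading had the same order down to Slc7a8, with Slc38a4 at 18.8 ± 4.23 CPM per kb (n = 2).

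In Reloading, Slc38a2 led with 29.6 ± 2.09 CPM per kb (n = 3), above Slc38a4 with 18.0 ± 0.42 and Slc1a5 with 11.4 ± 0.54, with no overlap between these neighbours. Slc3a2 with 10.0 and Slc7a2 with 9.21 CPM per kb followed and overlapped. Slc43a1 with 2.75 and Slc7a8 with 2.67 overlapped as well, and Slc7a5, Slc7a1 and Slc36a2 remained lowest with 1.13, 0.708 and 0.667 CPM per kb. Slc38a2 thus held 34.4% of the summed level of the 10 transporters in Reloading and 15.1% in Control, and Slc38a4 held 20.9% and 36.1%. The sum itself was 68.0 ± 2.52 CPM per kb in Control, 69.3 ± 5.51 in Unloading and 86.0 ± 3.50 in Reloading. The lowest Reloading library, at 82.2, was above the highest of the others, at 73.2. Slc38a2 alone went from a mean of 10.3 in Control and 12.4 in Unloading to 29.6, more than the sum rose. By their means, the other members together did not rise.

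**Figure D3:**
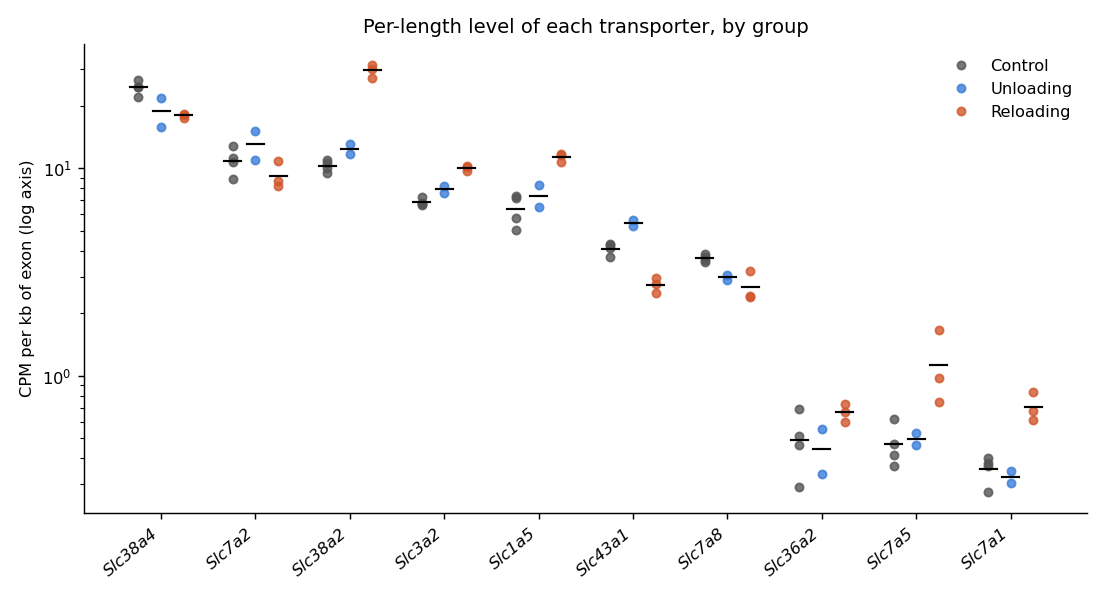
Level per length of each transporter (CPM per kb of exon, logarithmic y axis) in every library of the 3 groups, with group means as bars and genes ordered by their Control mean. Slc38a4 is highest in Control at a mean of 24.5, and Slc38a2 is highest in Reloading at 29.6.

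For the 3 transporters with the widest range of group means, the genes with the most similar pattern were sought. The measure was the root mean square difference of centred log2 CPM over the 9 libraries. Only genes with a symbol and a mean log2 CPM of at least 2 were searched, so less abundant genes could not be found. Among 9867 other genes, those nearest to Slc38a2 were Arid5a, an RNA-binding regulator of transcript stability (difference 0.0831), Flna, the actin crosslinker filamin A (0.0988), and Ccn2, the matrix-associated growth factor CTGF (0.105). Arid5a averaged 4.27 CPM in Control, 5.68 CPM in Unloading and 12.5 CPM in Reloading. Nearest to Slc7a5 were Midn (0.162), Epb41l1 (0.187) and Mthfd2 (0.192), the last an enzyme of mitochondrial one-carbon metabolism and a member of the amino acid response list below. Nearest to Slc7a1 were Skap2 (0.112), Mydgf (0.12) and Cstb, a cathepsin inhibitor (0.121). The libraries share their scaling, so such likeness describes a pattern over 9 points and carries no test.

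Further amino acid transporters of the plasma membrane were listed beside the members. Of 36 such genes 17 were abundant enough to test, and 8 of them were higher and 3 lower in Reloading than in Unloading, with a median log2 fold change of 0.48. Over all tested genes 18.5% were higher and 19.0% lower. Against Control 10 of the 17 were higher and 1 was lower, where 22.1% of all tested genes were higher and 21.3% lower. Slc6a19, which encodes the neutral amino acid carrier of gut and kidney, had 35 to 43 read pairs in each Reloading library, 3 in each Unloading library and 0 to 2 in the Control libraries. The ratio of its pooled rates was 15.1 against Unloading (exact 95% interval 6.72 to 41.9, counting error only), with a log2 fold change of 3.84 ± 0.42 in the fit (edgeR adjusted p = 8.82e-06).

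Slc38a1, which encodes SNAT1, another glutamine carrier and a relative of SNAT2, stood at 0.675 ± 0.104 CPM in Unloading and at 3.04 ± 0.266 CPM in Reloading (log2 fold change 2.18 ± 0.30, edgeR adjusted p = 5.32e-05). Slc6a17, a carrier best known from synaptic vesicles, went from 0.798 ± 0.494 to 3.62 ± 1.39 CPM (2.08 ± 0.39, adjusted p = 0.000686). The genes that fell were Slc16a10, which encodes the aromatic amino acid carrier TAT1 (-0.63 ± 0.10, adjusted p = 0.000147), Slc43a3, a relative of Slc43a1 known to carry purine bases (-0.45 ± 0.16, adjusted p = 0.0381), and Slc7a6, which encodes a further light chain of CD98 (-0.34 ± 0.13, adjusted p = 0.0468). At unloading, Slc7a6 (0.51 ± 0.12, adjusted p = 0.0152) and Slc6a6, the taurine carrier (0.41 ± 0.07, adjusted p = 0.00385), rose and no gene of the list fell. Over all tested genes 4.40% rose and 5.50% fell there. Without Control 2 and Reloading 1 the count was 7 higher and 1 lower against Unloading and 8 higher and 1 lower against Control.

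**Figure D4:**
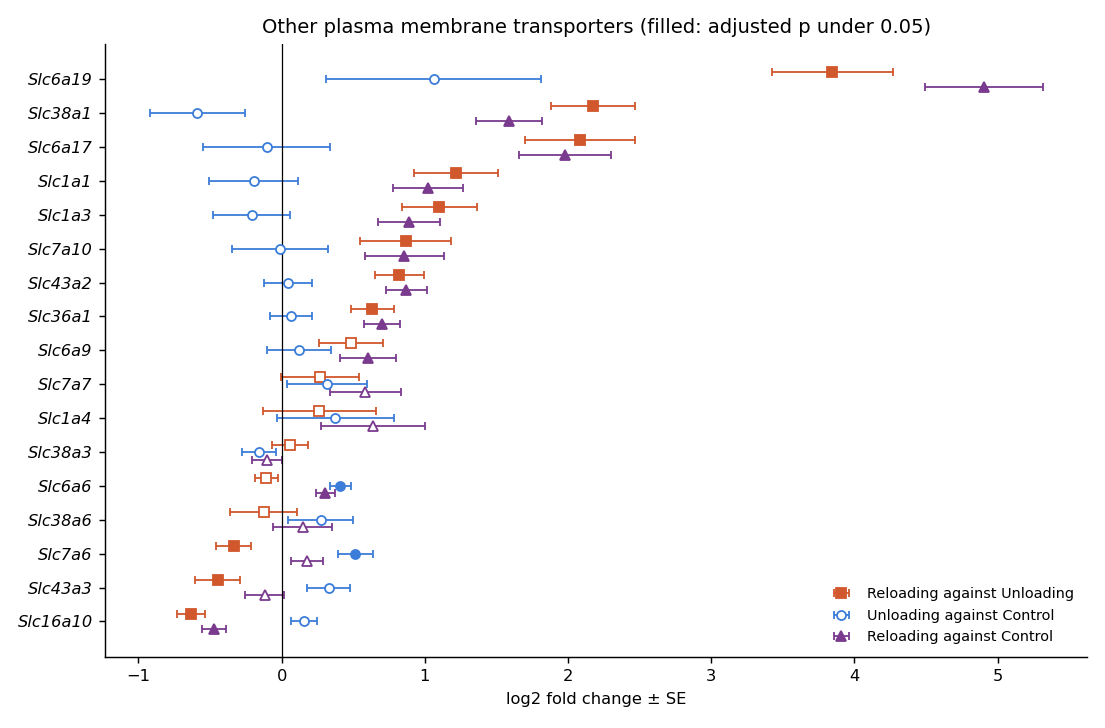
Log2 fold change with its SE (x axis) of the 17 other plasma membrane amino acid transporters tested, with symbols for the comparisons as in the legend, filled where the adjusted p was under 0.05. Slc6a19, Slc38a1 and Slc6a17 lie farthest right in Reloading against Unloading, at 3.84, 2.18 and 2.08, and Slc16a10 lies lowest, at -0.63.

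The next list was drawn up for carriers of the lysosomal and mitochondrial membranes, and where each protein lies was not examined. Of 16 tested, 2 rose and 2 fell between Unloading and Reloading, with a median of -0.10. Over all tested genes 18.5% rose and 19.0% fell, 37.5% in all, a larger share than was called in this list. Slc25a13 (1.86 ± 0.46, edgeR adjusted p = 0.00512) rose and Slc25a12 (-0.40 ± 0.09, adjusted p = 0.00203) fell, both encoding mitochondrial aspartate-glutamate carriers. Slc25a12 was by far the more abundant of the pair, at 392 ± 58.3 against 0.351 ± 0.033 CPM in Unloading. Slc25a13 thus lay near the floor of measurement. Its Reloading levels overlapped Control, and it was not called there (0.72 ± 0.34, edgeR adjusted p = 0.0994). Slc38a10 rose by 0.43 ± 0.08 (adjusted p = 0.000842), and Sfxn3, a sideroflexin, was higher in Unloading than in Control (0.55 ± 0.10, adjusted p = 0.00374) and fell at reloading (-0.30 ± 0.10, adjusted p = 0.0337). Slc25a29, a mitochondrial carrier of basic amino acids, was lower in Unloading than in Control (-0.74 ± 0.18, adjusted p = 0.0162). Between Unloading and Reloading, again 2 rose and 2 fell without Control 2 and Reloading 1. In Reloading against Control 8 of the 16 were called, near the 43.5% called over all tested genes.

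Among the 25 genes of the amino acid response, which ATF4 and related factors are known to drive, 11 rose and 4 fell from Unloading to Reloading, with a median log2 fold change of 0.29. Over all tested genes 18.5% rose and 19.0% fell. Psat1, of serine synthesis, went from 1.97 ± 0.39 to 6.88 ± 0.464 CPM (1.82 ± 0.23, edgeR adjusted p = 2.99e-05). Trib3, a pseudokinase, rose by 1.67 ± 0.32 (adjusted p = 0.000885), and Asns, asparagine synthetase, by 1.54 ± 0.31 (adjusted p = 0.00125). Atf4 itself went from 158 ± 0.961 to 234 ± 19.6 CPM (0.56, adjusted p = 0.000113; it is named as the factor the list rests on, outside the naming rule). The direction was not shared by the whole list. Chac1, a glutathione-degrading enzyme, rose in Unloading over Control from 58.7 ± 31.6 to 183 ± 67.5 CPM (1.65 ± 0.31, adjusted p = 0.00486) and fell at reloading to 41.7 ± 8.68 CPM (-2.14 ± 0.34, adjusted p = 0.000195). Cth, cystathionine gamma-lyase, fell by 0.93 on the log2 scale (adjusted p = 0.0317) and Vldlr, a lipoprotein receptor, by 0.79 (adjusted p = 0.000131). Chac1 was the 1 gene of the 25 called at unloading, where 9.90% of all tested genes were called. Without Control 2 and Reloading 1 the count at reloading was 10 higher and 3 lower.

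Of 37 genes that relay amino acid supply to mTORC1, 4 rose and 10 fell from Unloading to Reloading, with a median of -0.08. Over all tested genes 18.5% rose and 19.0% fell, 37.5% in all, a share near that called in this list. Mtor, the kinase, went from 50.3 ± 2.52 to 76.1 ± 4.40 CPM (0.60 ± 0.08, edgeR adjusted p = 5.67e-05). Fnip2, a partner of folliculin, rose by 0.53 (adjusted p = 0.0294) and Lamtor3, of the lysosomal Ragulator scaffold, by 0.46 (adjusted p = 0.000901). Sesn3, a sestrin, went from 24.4 ± 1.77 to 12.7 ± 1.39 CPM (-0.94 ± 0.12, adjusted p = 2.19e-05). Castor2, of the arginine sensor family, fell by 0.65 (adjusted p = 2.9e-05), and Fnip1, the second folliculin partner, by 0.64 (adjusted p = 5.89e-05). Sesn1 was the 1 gene called in Unloading against Control (0.55 ± 0.14, adjusted p = 0.0195), where 9.90% of all tested genes were called. Without Control 2 and Reloading 1 the count for Reloading against Unloading went from 14 to 9 genes. Over all genes, 5562 were called in the main fit of that comparison. The settings other than single libraries left out, this one among them, gave 4385 to 6340. Fewer list genes were also called without Unloading 2, which leaves 1 library in that group.

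Inside the cell, amino acids meet the enzymes that use branched-chain amino acids, glutamine and arginine. Of 26 tested, 14 fell and 2 rose from Unloading to Reloading, with a median of -0.35, where 19.0% of all tested genes fell and 18.5% rose. The transaminase gene Gpt2 was higher in Unloading than in Control (645 ± 110.2 against 375 ± 40.7 CPM, log2 fold change 0.78 ± 0.10, edgeR adjusted p = 0.000595) and fell to 276 ± 18.8 CPM at reloading (-1.22 ± 0.11, adjusted p = 1.62e-06). Ppm1k and Bckdha, the phosphatase that activates and a subunit that forms the branched-chain ketoacid dehydrogenase, fell by 1.10 (adjusted p = 0.00039) and 1.01 (adjusted p = 1.03e-06) on the log2 scale. The genes that rose were the nitric oxide synthases Nos3 (1.25 ± 0.19, adjusted p = 0.000129), which is the endothelial form, and Nos2 (0.88 ± 0.27, adjusted p = 0.0205). At unloading 8 of the 26 fell, among them Dbt, Bcat2 and Ivd, of branched-chain amino acid breakdown (-0.57, -0.54 and -0.48, adjusted p = 0.00658, 0.00368 and 0.00446). A fall at unloading was called for 5.50% of all tested genes. Odc1, the ornithine decarboxylase of polyamine synthesis, rose with Gpt2 (0.73 ± 0.09, adjusted p = 0.000331). At reloading 13 of the 26 fell and 2 rose without Control 2 and Reloading 1.

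Markers of several other cell types were higher at reloading, as the 5 risers were. The 12 macrophage markers summed to 95.1 to 114 CPM in Control, 97.2 and 100.4 CPM in Unloading and 184 to 209 CPM in Reloading, and 10 of 12 were called higher in Reloading than in Unloading. The 10 endothelial markers summed to 205 to 241, 208 to 212 and 343 to 429 CPM, with 9 of 10 called higher. The 10 skeletal muscle markers summed to 185978 to 202782 CPM in Control, 192046 and 199347 CPM in Unloading and 133054 to 147023 CPM in Reloading, with 8 of 10 called lower. Fibroblast markers summed to 706 to 873 CPM in Reloading, which overlapped the 539 to 742 CPM of Control. The highest of each group was the library with skin transcripts, Reloading 1 and Control 2. Satellite cell markers reached 65.7 to 74.1 CPM in Reloading against 46.1 to 59.4 CPM in Control. Fibroblast markers were mixed against Unloading, with Col1a1, Col3a1, Ly6a and Cd34 called higher, Pdgfra and Dcn lower, and Lum and Dpt not passing. For satellite cells Myod1, Myog and Vcam1 were called higher, while Pax7, Myf5, Cdh15 and Megf10 did not pass. Calls over all tested genes were 18.5% higher and 19.0% lower in that comparison. The 8 smooth muscle markers, Des of muscle fibres included, summed to 4002 to 4217 CPM in Control. The sums were 5093 and 5161 CPM in Unloading and 4372 to 4901 CPM in Reloading. The sum was thus lower than in Unloading although 6 of 8 were called higher. Rgs5 was called lower (-0.29 ± 0.08, edgeR adjusted p = 0.0105) and Des did not pass (-0.14 ± 0.08, adjusted p = 0.151). Adipocyte markers summed to 186 to 294, 258 to 270.1 and 310 to 348 CPM, with 1 of 7 called higher, and erythrocyte markers to 52.1 to 173, 67.3 to 120.04 and 57.3 to 139 CPM. Neutrophil markers summed to at most 8.23 CPM and lymphocyte markers to at most 2.40 CPM in every library, and Ly6g and Cxcr2 were at 0 in Unloading. The part of these cells in the transporter changes was not tested.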

How the data were processed

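RNA of 9 gastrocnemius samples (4 Control, 2 Unloading, 3 Reloading) was sequenced. The authors aligned reads to GRCm38.p6 (STAR 2.7.3a) and assigned read pairs to Ensembl genes without regard to strand (featureCounts 2.0.3), and the deposited table holds raw counts and exon lengths in bases. The study's methods describe single reads, whereas the counted unit is read pairs. Symbols were read from an authors' DESeq2 table, whose mean signal per gene (deposited as counts divided by size factors) was not used. The authors' fold changes and p-values in the deposited tables were not used either.

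The tests used edgeR 4.0.16 under R 4.3.3: filterByExpr (minimum count 10, minimum total 15), TMM scaling, 1 quasi-likelihood fit over all 9 libraries with group as the only term, two-sided F-tests and Benjamini-Hochberg adjustment over 14851 genes at 0.05. All-gene steps were tested on simulated data. The common biological coefficient of variation was 0.0927. Log2 CPM used a prior count of 2, SE came from the F statistic, and light-to-heavy chain ratios were compared by exact two-sided permutation. DESeq2 1.42.0 and limma 3.58.1 served as alternatives. No pair of libraries within a group differed by as little as sampling noise, and pairs across groups were not compared.

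Members, gene lists and tests were chosen with earlier results of these data known. Named genes were all 10 members, up to 3 higher and 3 lower genes of each list by fold change, and the 3 genes most like each of the 3 most variable members. The symbols Slc66a4 and Samtor could not be matched. Protein sequences were not analysed here.

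Replicate numbers in titles did not pair libraries (correlations of deviations -0.20 to 0.08). Numbers in descriptions gave correlations of 0.361, 0.143 and 0.155 for Control 2, 3 and 4 with Reloading 1, 2 and 3. The highest joins the 2 libraries with skin transcripts, whose part in it was not tested. These numbers have no stated source, and the other pairs of groups gave 0.02 to 0.08.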

Additional observations from a re-analysis of the deposited data

How the results depend on the processing

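Over 19 alternatives for 10 transporters in 3 comparisons, 522 of 570 fold changes kept direction and side of the threshold, 21 lost the call, 17 gained it and 10 turned sign. The causes were not tested. The count of 7 called in Reloading against Unloading ran from 5 to 8, and the 8 in Reloading against Control from 7 to 10. In Unloading against Control the count of 2 became 4 with no low-count filter, 1 with only the compared groups fitted and 1 with the title block, and ran from 0 to 2 with single libraries left out, where all genes called went from 1470 to 121 without Unloading 1 and 949 without Control 3. Its Slc7a5 value turned to -0.084 with the title block and -0.088 with the description block and ran from -0.037 to 0.25 with single libraries left out, and Slc36a2 from -0.51 to 0.20. With library totals alone, Slc7a8 (0.091) and Slc38a4 (0.18) turned for Reloading against Unloading and Slc7a2 (0.0024) for Reloading against Control, and Slc38a4 ran from -0.29 to 0.17 against Unloading with single libraries left out. The log2 ratio of Slc7a5 to Slc3a2 in Unloading against Control ran from -0.18 to 0.058. Where description or title numbers do not pair libraries, the description block called Slc36a2 against Unloading (1.06, edgeR adjusted p = 0.0313), and against Control called Slc38a2 (adjusted p = 0.0415) and Slc7a2 (0.0342) and lost Slc38a4 (0.0642) at unloading. The title block there called Slc38a2 (0.0393) and lost Slc43a1 (0.0515) and Slc38a4 (0.139). The blocks changed no other call of a transporter beside those given with Slc7a2 and Slc36a2. List counts that moved by over 1.5 times were, for Reloading against Unloading, the mTORC1 genes (14, lowest 5), for Reloading against Control the lysosomal and mitochondrial carriers (8, lowest 4), and at unloading each list (other transporters 2, 0 to 3; lysosomal and mitochondrial 2, 0 to 4; mTORC1 1, 0 to 2; response 1, 0 to 3; enzymes 10, 3 to 11). Depth limits Slc36a2, Slc7a5 and Slc7a1, with 11 to 119 read pairs per library.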
